A study of Homo sapiens with 12 samples.

Results

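BE(2)-C cells, a human neuroblastoma line with an amplified MYCN oncogene, were transfected with the empty plasmid pTRex-Dest30 and compared 72 h and 24 h afterwards. The comparison took the 2 arrays titled as empty vector at 72 h and the 2 titled as empty vector at 24 h, 4 of the 12 arrays of the study, by the sample names of the normalized intensity table. It was made over the 12323 genes whose brightest probe was detected on at least 2 of the 12 arrays. Per the labels, every culture received 2 µg of plasmid with the reagent Effectene and grew in DMEM with 10% fetal bovine serum and 1% non-essential amino acids. The other groups, each of 2 arrays, were empty vector at 48 h and a pTRex plasmid carrying GRHL1, a transcription factor of epithelial cells, at 24, 48 and 72 h. Total RNA was labelled with biotin and hybridised to Illumina BeadChips, on which each probe gives a brightness (intensity). No array of untransfected cells or of an earlier time is used here, so time in culture, time since transfection and the age of the medium cannot be told apart. Nothing in the labels says that replicates came from separate cultures. Each p-value of the reported fit thus reflects the scatter between replicate arrays, pooled over all 12 arrays of both plasmids, which may be technical only.

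SREBP factors switch on the genes of cholesterol and fatty acid synthesis when membrane sterol is low and are held back when sterol is plentiful. NRF2 drives enzymes that detoxify electrophiles and make glutathione, and immediate early genes such as FOS and EGR1 answer serum, growth factors and stress within minutes to hours. Lists of these genes, of cell cycle genes and of markers of other cell types were read alongside the single genes.

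The 2 deposited tables did not name the arrays alike. For 7 of the 12 columns of the scanner table, the best match by rank correlation (at least 0.99997, against at most 0.876 for the next best) was a column of another name in the normalized table. Both 24 h empty vector arrays had the same names in both tables. The columns named empty vector 72 h in the scanner table held the values that the normalized table gives to GRHL1 at 72 h. The values of empty vector 72 h stood there under the names GRHL1 48 h replicate 2 and GRHL1 72 h replicate 1. By the names of the normalized table, the GRHL1 probe read 97.9 and 123 at 24 h, then 103 and 104 at 72 h on the empty vector arrays, below the detection limit of 128.5 (the intensity under which 95% of undetected probes lie, as the median over arrays), and between 4669 and 12964 on the GRHL1 arrays. All values below follow the normalized table, and the values under the scanner table's own names are given where calls rest on them.

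The empty vector arrays detected between 17950 and 19383 of 47323 probes, and replicates correlated across genes at 0.992 at both times. The second principal component, with 14.6% of the variance, placed the 24 h empty vector arrays at 15.2 and 6.22, the 48 h arrays at -4.58 and -5.72 and the 72 h arrays at -7.71 and -7.87. The 24 h replicates thus lay farther apart than the 72 h replicates. The cells carried the marks of an adrenergic neuroblastoma: 10 of 10 tested defining markers lay above the limit on all 4 arrays, among them DBH, the enzyme that makes noradrenaline, with 5919 and 7233 at 24 h, then 7444 and 7720.3 at 72 h. MYCN itself read 25723 and 24644 at 24 h, then 26358 and 25188 at 72 h, a log2 difference of 0.03 ± 0.09 (SE). HDAC3, a histone deacetylase read as a second check, gave 1066 and 990.3 and then 1033 and 1146. Of 7 glial markers on the array, 6 were below the limit on all 4 arrays (SOX10 and S100B among them) and ERBB3 was above it on 2. Of 8 endothelial markers, 6 were below it on all 4 (VWF and CDH5 among them) and PECAM1 and TEK were above it on 1. Of 9 leukocyte markers, CD68 (424 to 466) and CD14 (179 to 209.9) were above it on all 4, PTPRC, ITGAM and CSF1R on 1, and 4 on none, CD3E and TYROBP among them. Of 9 epithelial markers, KRT19 was above it on all 4 (199 to 263), MUC1 on 2, EPCAM on 1, and 6 on none, KRT5 and KRT14 among them. Summed over a list, the intensity above the limit was 369 to 382 at 24 h and 395 to 398 at 72 h for leukocytes, 70.3 to 116 and then 126 to 147 for epithelium, at most 11.4 and then 13.7 for glia, and at most 1.42 and then 10.8 for endothelium. The part of these markers in the results was not tested. Of 10 fibroblast markers, 5 were above it on all 4 (DCN, LUM, PDGFRB, THY1 and ACTA2) and 3 on none (COL3A1, PDGFRA and FAP), and their summed intensity above the limit was 3855 and 4239.8 at 24 h, then 4427 and 4724 at 72 h.

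With limma, 7 of the 12323 genes differed between 72 h and 24 h at a Benjamini-Hochberg adjusted p under 0.05, which is 0.0568%. C7, TSPAN8, IGFBP5, HAMP, RIMBP2 and CNKSR2 rose (0.0487% of genes) and NQO1 fell (0.00811%). All 7 shared an adjusted p of 0.0481, and the next gene had 0.0781. At an unadjusted p under 0.05 there were 1320 genes, against about 616 that this threshold alone would give; 890 read higher at 72 h (7.22%) and 430 lower (3.49%). After quantile scaling of the arrays, 681 of 1291 such genes read higher and none passed the adjusted threshold. The median log2 difference over all genes was 0.03, with 6880 above 0 and 5443 below.

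Of the 3 secreted proteins among the genes that rose, C7 is a late component of the complement cascade, which builds the membrane attack complex. Its intensity was 206 and 266 at 24 h, 319.6 and 332 at 48 h and 488 and 471 at 72 h. The groups did not overlap, the 48 h arrays stood between the others, and the log2 difference from 24 h to 72 h was 1.32 ± 0.16 (SE, limma adjusted p = 0.0481). IGFBP5, which binds insulin-like growth factors outside the cell, read 625 and 739 at 24 h, 951 and 939 at 48 h and 1365 and 1199 at 72 h, a log2 difference of 0.99 ± 0.13. Every 72 h array exceeded every earlier one, and a second IGFBP5 probe gave a log2 difference of 1.10 ± 0.15 (unadjusted p = 3.53e-05). HAMP encodes hepcidin, the hormone that limits iron export from cells. It read 124 and 121 at 24 h and, at 48 h, 127 and 123, all below the detection limit, and 165 and 167 at 72 h. Against the limit, this is a rise of at least 1.29-fold, a bound that was not itself tested. The fitted log2 difference, 0.88 ± 0.12 (limma adjusted p = 0.0481), depends on how low values are treated and was 0.40 without background correction.

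TSPAN8, a tetraspanin that organises proteins of the cell surface, read 676 and 654 at 24 h, 829.6 and 813 at 48 h and 1754 and 1261 at 72 h. The 72 h replicates lay far apart but both exceeded all earlier arrays, and the log2 difference was 1.25 ± 0.15. RIMBP2, which links calcium channels to the release machinery of the presynaptic terminal, read 156 and 153 at 24 h, 216 and 222 at 48 h and 215 and 216 at 72 h. Its 48 h and 72 h arrays overlapped, all of them stood above the 24 h arrays, and the log2 difference was 0.78 ± 0.10, or 0.44 without background correction. CNKSR2, a scaffold of Ras signalling in neurons, read 114 and 108 at 24 h, then 136 and 135 at 72 h. Both 24 h values were below the limit, so only a bound can be given, a rise of at least 1.06-fold. The limma adjusted p of 0.0481 belongs to the fitted difference and does not test this bound. CNKSR2 was detected on 3 of the 12 arrays, which included 1 of the 72 h empty vector arrays and none of 24 h, so it passed the detection filter only through later arrays. Without background correction its adjusted p was 0.221 and with an offset of 50 it was 0.0939, although the number of genes called rose under both.

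**Figure D1:**
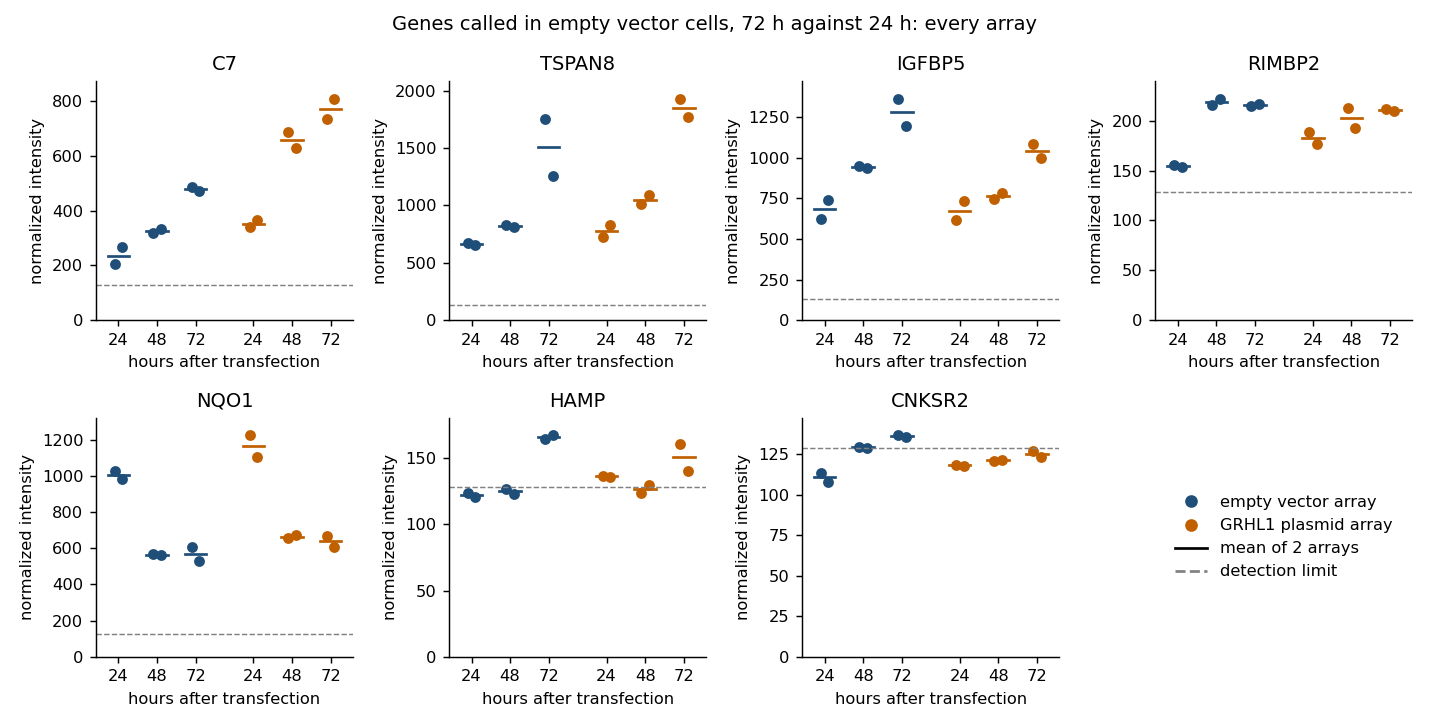
Normalized intensity of the 7 called genes on every array, by hours after transfection. Points are single arrays, short lines the mean of 2 arrays and the dashed line the detection limit of 128.5; C7 climbs from 24 h through 48 h to 72 h, while NQO1 and RIMBP2 are near their 72 h level by 48 h.

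NQO1, a quinone reductase and a standard NRF2 target, was the gene that fell. Its intensity was 1029 and 981 at 24 h, 567 and 563 at 48 h and 609 and 532 at 72 h. The 24 h arrays stood clear of all later ones, the 48 h and 72 h arrays overlapped, and the log2 difference from 24 h to 72 h was -0.90 ± 0.11 (SE, limma adjusted p = 0.0481). Of 24 listed NRF2 and glutathione genes, 20 were tested: 1 fell, none rose, 16 had a difference below 0, and the median was -0.15, against 0.03 over all genes. That median was -0.06 without replicate 1 of 24 h and -0.08 without replicate 2 of 72 h. At an unadjusted p under 0.05, 4 read lower and 2 higher, where 3.49% and 7.22% of all genes did. The 2 time groups did not overlap for 10 genes in the lower direction and 3 in the higher, where the shares over all genes were 18.4% and 22.3%.

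After NQO1, the lowest differences in this list belonged to enzymes of glutathione, haem and NADPH metabolism. GCLM, the modifier subunit of the enzyme that starts glutathione synthesis, read 631 and 651 at 24 h, 404 and 438 at 48 h and 446 and 357 at 72 h (log2 difference -0.79 ± 0.13, limma adjusted p = 0.116). Its groups did not overlap, and a second probe gave -0.39. ME1, malic enzyme, a source of NADPH, read 530.2 and 539.7 and then 425 and 359.8 (-0.53 ± 0.13), also without overlap. HMOX1, haem oxygenase, read 213 and 205 and then 162 and 140.4 (-0.74 ± 0.19). TXNRD1 (thioredoxin reductase) had a difference of -0.25, GSR (glutathione reductase) -0.36 and PGD, an enzyme of the pentose phosphate pathway, -0.20; none of these passed the adjusted threshold. The glutathione transferases of the mu class went the other way, GSTM2 with 0.56 and GSTM1 with 0.38. These are close paralogs, whose probes may share transcripts, and their values are uncertain for that reason.

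The antioxidant response element core, searched as TGACNNNGC on both strands, lay within the promoter window (250 bases before to 50 after the start of transcription) of 7 of 18 NRF2 list genes with a RefSeq promoter, 38.9%, and of 15.4% of the 9809 tested genes with one. Besides GCLM and ME1, the matched genes were TXNRD1 (-0.25), PGD (-0.20), GSTP1 (-0.04), GSTA4 (0.18) and GSTM1 (0.38). NQO1 and HMOX1 were not among the 7. GCLM and ME1 are shown because they had the lowest differences of the matched genes. Capitals mark the matches, and the windows lie on the minus strand of GRCh38.p14 at chr1:93909381-93909680 (GCLM) and chr6:83431002-83431301 (ME1). A match is a description of letters, not a bound site.
GCLM: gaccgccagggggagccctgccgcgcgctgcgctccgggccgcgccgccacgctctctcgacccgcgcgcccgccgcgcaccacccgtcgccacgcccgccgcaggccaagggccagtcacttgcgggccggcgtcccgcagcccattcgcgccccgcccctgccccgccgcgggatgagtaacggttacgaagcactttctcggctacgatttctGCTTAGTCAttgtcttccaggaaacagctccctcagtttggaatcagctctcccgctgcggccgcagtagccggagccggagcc
ME1: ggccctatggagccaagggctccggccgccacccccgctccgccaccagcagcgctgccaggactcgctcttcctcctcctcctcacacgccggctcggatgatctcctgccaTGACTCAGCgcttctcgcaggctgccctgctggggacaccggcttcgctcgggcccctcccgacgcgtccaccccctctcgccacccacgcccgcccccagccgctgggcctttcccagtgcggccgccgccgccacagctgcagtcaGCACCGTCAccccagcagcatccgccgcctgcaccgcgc

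Genes of cholesterol and fatty acid synthesis mostly read lower at 72 h, although none passed the adjusted threshold with limma. Of 31 listed SREBP targets, 26 were tested, and all 26 lay above the detection limit on all 4 arrays. The difference was below 0 for 24 of them, with a median of -0.23. At an unadjusted p under 0.05, 12 read lower (3.49% of all genes did) and none higher (7.22%). The groups did not overlap for 18 in the lower direction (18.4% of all genes) and for 1 in the higher (22.3%). No test was made of the list as a whole.

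The lowest values lay in the mevalonate and sterol branch. MVD, the decarboxylase that yields isopentenyl diphosphate, read 482 and 478 at 24 h, 268 and 287 at 48 h and 294 and 349 at 72 h (log2 difference -0.70 ± 0.13, limma adjusted p = 0.148). The 24 h arrays exceeded all others, and the 72 h arrays exceeded both 48 h arrays. DHCR7, the reductase of the last step to cholesterol, read 1440.3 and 1384 at 24 h, 844 and 851 at 48 h and 898 and 1033 at 72 h (-0.58 ± 0.11). Its order of the times was the same, and a second probe gave -0.32. HMGCS1, the synthase that commits acetyl units to the pathway, read 5137 and 5370.4, then 2877 and 2728, then 3593 and 4595 (-0.38 ± 0.15). INSIG1, which holds SREBP in the endoplasmic reticulum and is itself a target, read 1955 and 2127, then 1081 and 1331, then 1292 and 1755 (-0.45 ± 0.18).

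The same shape, lowest at 48 h and partly back by 72 h, recurred through the list. The 48 h difference from 24 h was lower than the 72 h difference for 24 of 26 members, against 6169 of all 12323 genes, and the median at 48 h was -0.44. Both comparisons use the same 24 h arrays. IDI1, the isomerase of isopentenyl diphosphate, read 935 and 923 at 24 h, 679 and 601 at 48 h and 885 and 912 at 72 h, so its 72 h difference was only -0.05. MVK (mevalonate kinase, -0.48), ACAT2 (acetoacetyl-CoA thiolase, -0.46), MSMO1 (sterol methyl oxidase, -0.47), NSDHL (sterol dehydrogenase, -0.45), FDPS (farnesyl diphosphate synthase, -0.43) and STARD4 (a sterol carrier, -0.49) made up the rest of the low end. The fatty acid genes stood nearer to 0: FASN, fatty acid synthase, had -0.13, SCD, the stearoyl desaturase, -0.14, ACACA, acetyl-CoA carboxylase, -0.05, and ACLY, ATP citrate lyase, 0.05. The 72 h replicates differed from each other across the list, with replicate 1 the lower for 23 of 26 members. Without replicate 2 of 72 h the median was -0.30, and without replicate 1 it was -0.17.

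**Figure D2:**
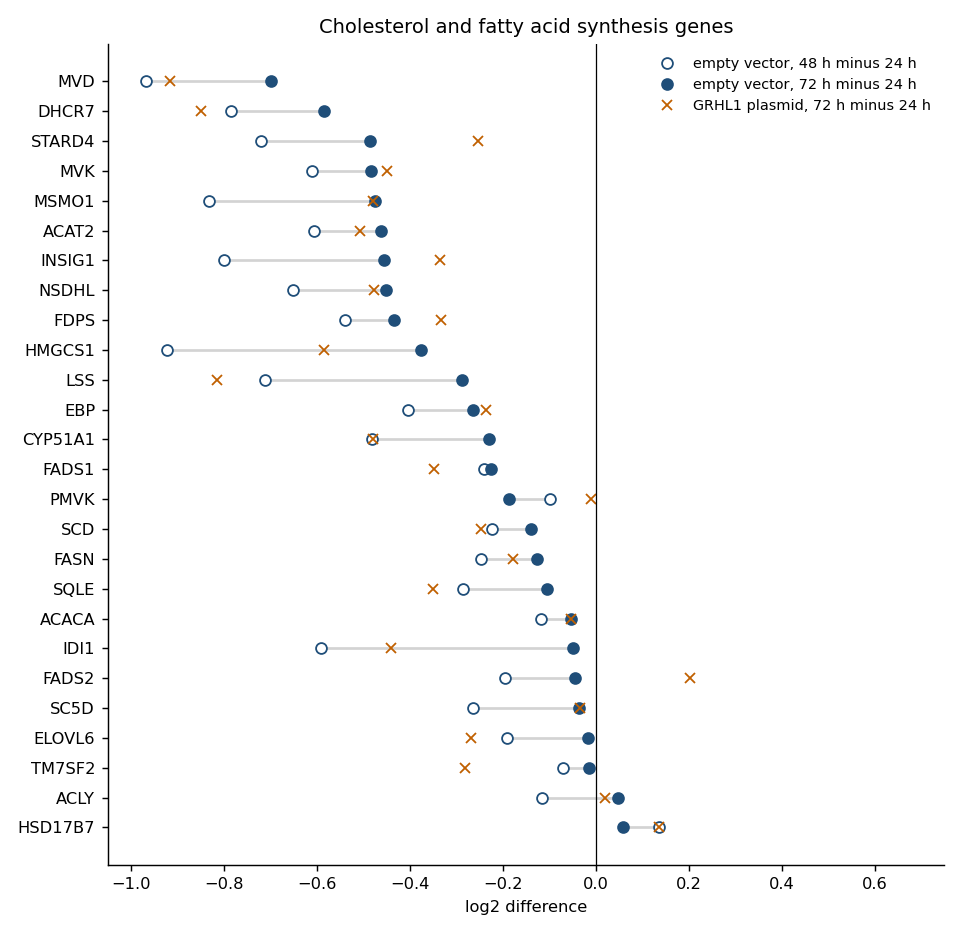
Log2 difference from 24 h for the 26 tested cholesterol and fatty acid synthesis genes, 1 row a gene. Open circles are empty vector at 48 h, filled circles empty vector at 72 h and crosses the GRHL1 plasmid at 72 h against its own 24 h arrays; for 24 genes the 48 h circle lies to the left of the 72 h circle.

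The inverted CCAAT box ATTGG, on which NF-Y binds next to SREBP at many sterol genes, was found on either strand in the promoter windows of 16 of 23 list genes (69.6%) and of 37.1% of all tested genes. The sterol regulatory element, searched as TCACNCCAC, was found in 0 of the 23 and in 0.989% of all; no match says only that these letters are not in the window. The windows of MVD and DHCR7, the list's lowest genes, hold 3 and 2 matches when both strands are counted. In capitals below, a match reads ATTGG on the printed strand or CCAAT where it lies on the other. Both windows are on the minus strand, at chr16:88663042-88663341 and chr11:71448344-71448643.
MVD: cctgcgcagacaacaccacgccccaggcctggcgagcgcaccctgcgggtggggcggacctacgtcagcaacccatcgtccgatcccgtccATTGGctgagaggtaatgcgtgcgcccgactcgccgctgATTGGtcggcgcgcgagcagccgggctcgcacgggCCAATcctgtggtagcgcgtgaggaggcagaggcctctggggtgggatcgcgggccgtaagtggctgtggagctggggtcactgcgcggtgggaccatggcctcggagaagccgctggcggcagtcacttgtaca
DHCR7: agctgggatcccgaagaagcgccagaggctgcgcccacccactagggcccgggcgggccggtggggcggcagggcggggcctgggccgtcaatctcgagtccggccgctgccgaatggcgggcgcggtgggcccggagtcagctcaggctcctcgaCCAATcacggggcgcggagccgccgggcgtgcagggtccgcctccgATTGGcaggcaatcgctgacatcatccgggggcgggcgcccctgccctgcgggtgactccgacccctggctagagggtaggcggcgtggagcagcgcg

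Immediate early genes also read lower at 72 h for the most part. Of 28 listed, 23 were tested; limma called none, 17 differences were below 0, and the median was -0.18. Without replicate 2 of 72 h the median was -0.07, and without background correction -0.10. At an unadjusted p under 0.05, 6 read lower and 2 higher (3.49% and 7.22% of all genes). The groups did not overlap for 10 in the lower direction and 2 in the higher (18.4% and 22.3% of all genes). FOS, a subunit of the AP-1 factor, read 247 and 227 at 24 h, 163 and 171 at 48 h and 167 and 106 at 72 h (log2 difference -1.42 ± 0.33, limma adjusted p = 0.23). Every later array was below both 24 h arrays, but 72 h replicate 2 stood well below replicate 1 and under the detection limit. EGR1, a zinc finger factor induced by serum, read 613 and 1009 and then 502 and 407 (-0.89 ± 0.28). Its 24 h replicates were far apart, and both 72 h arrays lay below them. KLF6, a Krüppel-like factor, read 3073 and 3233 at 24 h, 1986 and 2220.1 at 48 h and 2119 and 1934 at 72 h (-0.66 ± 0.10, adjusted p = 0.0844), with tight replicates. JUN, the partner of FOS, had -0.51 ± 0.11, and DUSP1, a phosphatase that ends MAP kinase signalling, -0.28 ± 0.10. NR4A2 (0.39) and FOSL2 (0.33) stood at the upper end. KLF2, listed with the quiescence genes, read 746 and 881 and then 582 and 534 (-0.60 ± 0.13).

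The CArG box, the binding sequence of serum response factor, was found in the promoter window of 1 of 15 immediate early genes with a RefSeq promoter, EGR1, and in 1.07% of all tested genes. EGR1 is shown for that reason, with its 2 matches in capitals, on the plus strand at chr5:138465229-138465528.
EGR1: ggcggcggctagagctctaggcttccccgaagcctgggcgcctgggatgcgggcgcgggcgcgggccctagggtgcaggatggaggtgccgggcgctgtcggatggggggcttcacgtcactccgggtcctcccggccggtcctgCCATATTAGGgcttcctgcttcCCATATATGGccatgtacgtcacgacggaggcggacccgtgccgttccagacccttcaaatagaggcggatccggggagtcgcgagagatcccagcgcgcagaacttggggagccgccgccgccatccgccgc

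Genes of cell division read slightly higher. Of 30 G2/M and mitosis genes, all tested, limma called none, and the median was 0.13. For 24 the difference was above 0 (6880 of all 12323 genes). The groups did not overlap for 18 in the higher direction and 4 in the lower (22.3% and 18.4% of all genes). At an unadjusted p under 0.05, 6 read higher and 1 lower (7.22% and 3.49% of all genes). CENPF, a kinetochore protein, read 1117 and 1145 at 24 h, 1476 and 1506 at 48 h and 1416 and 1528 at 72 h (0.40 ± 0.10). Its 48 h and 72 h arrays overlapped. TOP2A, the topoisomerase that untangles chromosomes, read 3832 and 3897 and then 4802 and 5354 (0.40 ± 0.12). TTK, a kinase of the spindle checkpoint, had 0.37 ± 0.13. DLGAP5, a spindle protein, had 0.32 ± 0.09 with the probe used, but 0.08 with a second probe. PLK1, the polo-like mitotic kinase, read lower, with 331 and 326 and then 278 and 271 (-0.33 ± 0.13). The G1/S and replication list had a median of 0.09 over 30 genes (0.05 without replicate 1 of 24 h), with 24 above 0 and E2F1, the S phase transcription factor, at 0.32 ± 0.13. The CHR element TTTGAA, to which the MuvB complex binds at mitotic genes, lay in the windows of 15 of 24 G2/M genes (62.5%) and of 10.2% of all tested genes.

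Extracellular matrix genes read higher in 23 of 26 tested cases (6880 of all 12323 genes), with a median of 0.13 and no call by limma. At an unadjusted p under 0.05, 5 read higher (7.22% of all genes) and none lower (3.49%). MGP, matrix Gla protein, an inhibitor of calcification, read 641 and 934 at 24 h, 1008 and 1107 at 48 h and 1859.8 and 1476 at 72 h (1.17 ± 0.22, adjusted p = 0.151), and a second probe gave 1.16. The groups did not overlap for either probe. LUM (lumican) had 0.55 ± 0.21, LAMA5, a basement membrane laminin chain, 0.43 ± 0.13, and DCN (decorin) 0.48 ± 0.22. LUM, DCN and ACTA2 (0.46) are also fibroblast markers, whose summed level is given above. Of 6 tested fibroblast markers, 5 had a difference above 0 and 1 below. PDGFRB read 702 and 650 at 24 h, then 598 and 573 at 72 h, and THY1 2320 and 2286, then 2363 and 2313. The part of the fibroblast markers in the matrix result was not tested. In bulk RNA, a different number of cells of a type and a different amount of RNA per cell cannot be told apart. Among 17 tested genes of the IGF axis, IGFBP5 rose. IGFBP7 (0.62 ± 0.13) and STC1 (0.55 ± 0.17), a secreted stanniocalcin that inhibits a protease of IGF binding proteins, read higher, and the growth factor IGF2 had 0.02 ± 0.22.

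In the remaining lists limma called no member. Of all 33 pathway lists, 24 had a median between -0.07 and 0.09. Outside that range, besides the cholesterol, NRF2, immediate early, G2/M and matrix lists, lay 4 others. The 5 tested genes of cholesterol efflux and LXR had a median of -0.17, all below 0, with LPCAT3, a phospholipid acyltransferase, at -0.35 ± 0.12; without replicate 1 of 72 h the median was 0.00. The 12 tested mesenchymal-type neuroblastoma genes had 0.15, with 10 above 0 and CD44, the hyaluronan receptor, at 0.49 ± 0.17, and 0.09 without replicate 1 of 24 h. The 12 genes of DNA sensing and antigen presentation had 0.13, and between 0.06 and 0.24 when 1 array of 24 h was left out. Of these 12, 8 were above 0, as were 6880 of all 12323 genes. TAPBP (tapasin) had 0.33 ± 0.12 with its brightest probe, but -0.002 with a second, dimmer probe near the detection limit. The 30 ATF4 targets had a median of -0.07 (-0.02 without replicate 2 of 24 h and -0.13 without replicate 1). DDIT3 (CHOP) had -0.43 ± 0.13 and SHMT2, mitochondrial serine hydroxymethyltransferase, -0.32 ± 0.10. At an unadjusted p under 0.05, 5 ATF4 targets read lower and 1 higher (3.49% and 7.22% of all genes). The 33 ribosomal protein genes had a median of 0.00 and the 37 respiratory chain genes 0.02. Interferon-stimulated genes had the highest pathway median, 0.18 over 17 genes, and 0.08 with the GRHL1 plasmid. Of 30 on the array, 12 lay above the detection limit on all 4 arrays and 11 on none. At an unadjusted p under 0.05, 2 of the 17 read higher (7.22% of all genes) and 0 lower (3.49%). OAS1, an antiviral nucleotide synthetase, had 0.58 ± 0.23 and no overlap of the groups with its brightest probe. The other OAS1 probes gave 0.35 ± 0.13 without overlap and 0.30 ± 0.24 with overlap. Adrenergic genes had 0.03 over 20 genes. Among 36 neuronal genes, whose median was 0.04, the secreted neuropeptide precursor VGF read 8641 and 10004 and then 6402 and 6282 (-0.56 ± 0.13). SCG5, a chaperone of secretory granules, read 1089 and 1026 at 24 h, 1897 and 1621 at 48 h and 1561 and 1542 at 72 h (0.59 ± 0.11), with no overlap. MT1X, a metallothionein, read 334 and 338 and then 459 and 451 (0.54 ± 0.11), and its family is near-identical in sequence, so the reading may include other members.

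**Figure D3:**
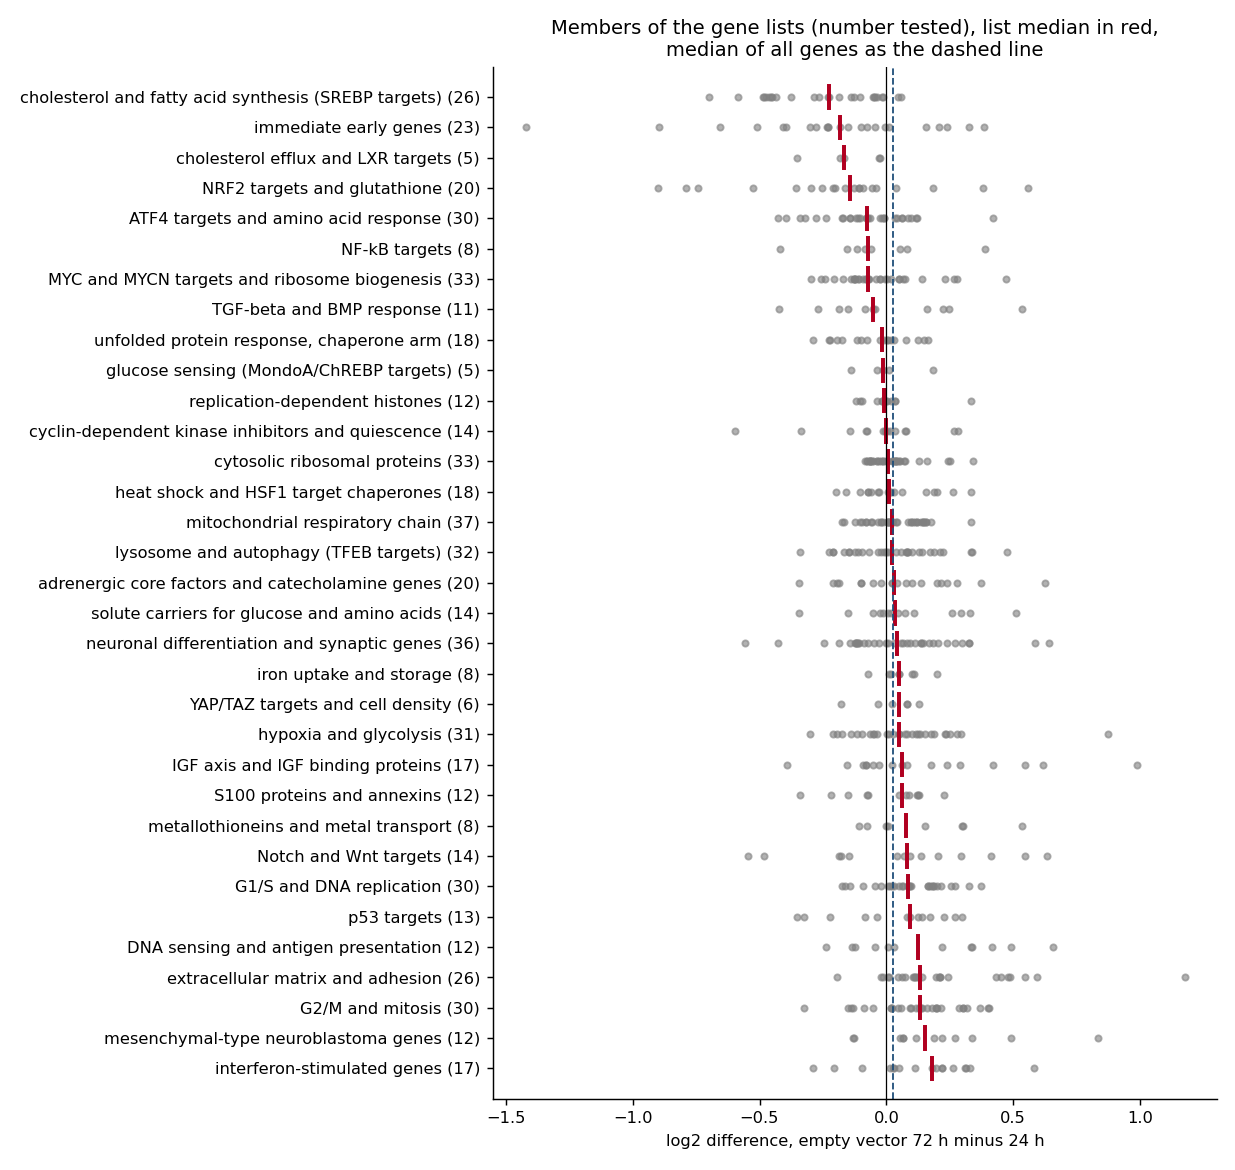
Log2 difference between 72 h and 24 h in empty vector cells for each tested member (grey points) of the 33 pathway lists, with the list median in red and the number tested in brackets. The dashed line is the median of all genes, 0.03; the cholesterol list has the lowest median, -0.23, and the interferon list the highest, 0.18.

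Just outside the threshold, and named after their values were seen, were CCDC3, a secreted protein (0.64 ± 0.09, limma adjusted p = 0.0781), BRSK2, a kinase of neuronal polarity (0.99 ± 0.15, 0.0786), and KLF6. With only genes detected on all arrays, CCDC3 and KLF6 were called and BRSK2 was not. With the GRHL1 plasmid the differences were 0.35 for CCDC3, 0.009 for BRSK2 and -0.48 for KLF6. PPP1R15A, the phosphatase subunit that ends the integrated stress response, read 602 and 608 at 24 h, then 443 and 425 at 72 h (-0.55 ± 0.09, 0.141). The groups were well apart, relative to the distance between replicates. HTR3A, a serotonin-gated channel, read 280.2 and 275 and then 448 and 467 (0.90 ± 0.16) with its brightest probe. A second, dimmer probe gave 135 and 146 and then 168 and 151 (0.36 ± 0.23, unadjusted p = 0.152).

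The cells given the GRHL1 plasmid passed through the same times on 4 other arrays. There, limma called 26 genes (0.211%), of which 15 rose (0.122%) and 11 fell (0.0893%). The comparisons of the 2 plasmids share 1 estimate of each gene's spread, so their calls are not independent. All 7 genes called with the empty vector had the same sign of the fitted difference, although that of CNKSR2 rests on values below the detection limit. Of the 7, 3 were called with both plasmids: C7, TSPAN8 and NQO1, which are 42.9% of the empty vector calls and 11.5% of the GRHL1 plasmid calls. With GRHL1, C7 read 341 and 364 at 24 h, then 736 and 809 at 72 h (1.30 ± 0.16, adjusted p = 0.0146). TSPAN8 read 727 and 826 and then 1931 and 1769.8 (1.33 ± 0.15, 0.0119), and NQO1 1225 and 1107 and then 667 and 609.8 (-0.94 ± 0.11, 0.0119). In each of these genes, the groups did not overlap with either plasmid. IGFBP5 gave 0.69 ± 0.13 (adjusted p = 0.108), RIMBP2 0.32 ± 0.10 (0.294) and HAMP 0.25 ± 0.12 (0.476). CNKSR2 was below the limit on all 4 of these arrays. Across the 12323 genes, which are not independent replicates, the differences of the 2 plasmids correlated at 0.299 (Pearson) and 0.290 (Spearman), and 61.4% had the same sign.

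**Figure D4:**
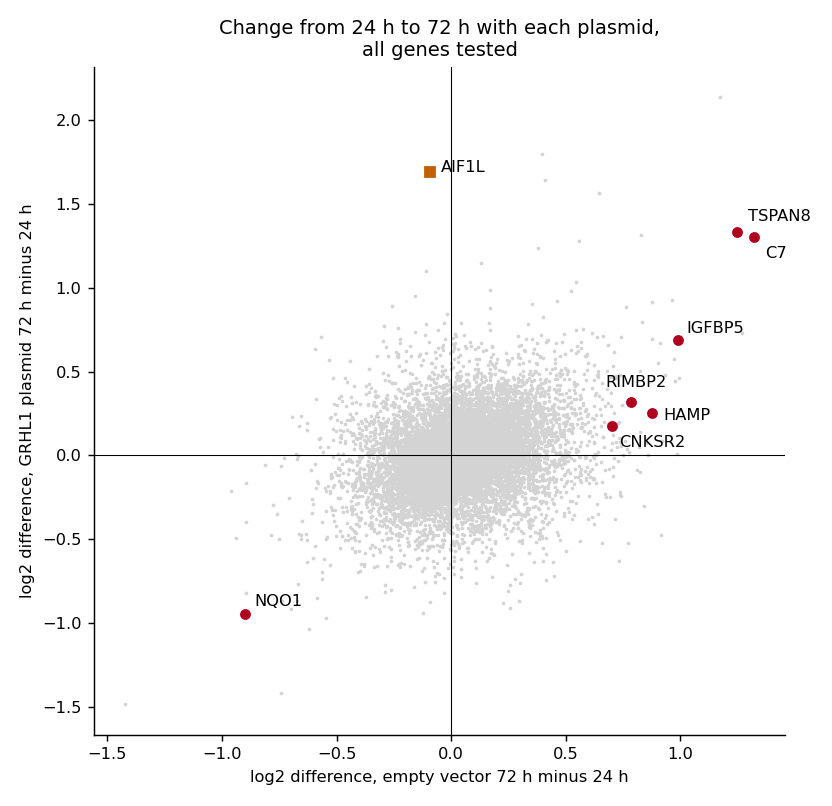
Log2 difference from 24 h to 72 h in empty vector cells (horizontal) and GRHL1 plasmid cells (vertical) for all 12323 genes, with the 7 empty vector calls in red; HAMP and CNKSR2, below the limit at 24 h, stand at their fitted values. C7, TSPAN8 and NQO1 lie near the diagonal, and AIF1L, at -0.09 and 1.69, is the gene whose change differed between plasmids.

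For the cholesterol list, 25 of 26 members had the same sign with both plasmids, 15 lay lower without overlap in both (57.7%, against 7.27% of all genes; with GRHL1 alone, 21.7% of all genes lay lower and 19.7% higher without overlap), and the GRHL1 median was -0.33. MVD (-0.92 ± 0.13), DHCR7 (-0.85 ± 0.11) and LSS, lanosterol synthase (-0.82 ± 0.12), fell with GRHL1 at adjusted p of 0.0281, 0.0229 and 0.0319. ACSS2, an acetyl-CoA synthetase outside the list, fell there as well (-0.73 ± 0.11) and read 1171 and 1319.9 and then 864 and 862 with the empty vector. Immediate early genes had a GRHL1 median of -0.16, with FOS at -1.49 ± 0.33 and EGR1 at -0.82 ± 0.28, and G2/M genes 0.08. The NRF2 list had a GRHL1 median of 0.03: NQO1 and HMOX1 (-1.42 ± 0.19) fell, and GSTM1 (1.24 ± 0.10) and GSTM2 (1.28 ± 0.12) rose. Matrix genes had a GRHL1 median of 0.06, with 15 of 26 above 0 and 11 below. MGP rose by 2.14 on the log2 scale with GRHL1, from 1554 and 2139 to 8531 and 7116.

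A test of the difference between the 2 time changes called 1 gene of 12323 (0.00811%), AIF1L, an actin-bundling protein. With the empty vector it read 203 and 207 at 24 h, then 191 and 199 at 72 h, and with GRHL1 494 and 429 and 1416 and 1261. The difference of differences was 1.78 ± 0.17 on the log2 scale (limma adjusted p = 0.0132). For the 7 empty vector calls, the lowest adjusted p of this difference was 0.686. The unadjusted limma p was 0.0024 for CNKSR2, 0.0042 for HAMP and 0.0090 for RIMBP2, whose fitted rises were smaller with GRHL1. Their difference of differences was -0.62 for HAMP and -0.46 for RIMBP2. For IGFBP5 the unadjusted p was 0.14, and for C7, TSPAN8 and NQO1 it was 0.71 to 0.94. MGP, with 1.17 against 2.14, had an adjusted p of 0.753.

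How many genes were called depended on how the values were treated. Without background correction limma called 59 genes, with an offset of 50 it called 12, and with only genes detected on all 12 arrays 24. With quantile scaling, with the 4 arrays fitted alone and with the scanner table's own names it called none, with respectively 1291, 1088 and 1266 genes at an unadjusted p under 0.05. By the names of the normalized table, the scanner table's own names set GRHL1 plasmid arrays of 72 h against empty vector arrays of 24 h. The GRHL1 gene differed by 7.11 there, so this is not the same comparison. Under those names the signs of all 7 genes were kept, with C7 at 2.05, TSPAN8 at 1.57, RIMBP2 at 0.68, IGFBP5 at 0.66 and NQO1 at -0.73. The fitted values were 0.59 for HAMP and 0.42 for CNKSR2. By the normalized values, CNKSR2 lay below the detection limit on every array compared there, so its sign carries no weight. The list medians under those names were -0.30 for cholesterol synthesis, -0.12 for NRF2, -0.13 for immediate early genes and 0.09 for G2/M. Counting the reported setting, CNKSR2 was called in 3 of the 18 settings in which it was tested and HAMP in 6 of 19, while C7 and TSPAN8 were called in 9 of 20 and IGFBP5, RIMBP2 and NQO1 in 8 of 20. Leaving out 1 of the 4 arrays left between 0 and 3 calls. Without replicate 1 of 24 h there were 0, with 906 genes at an unadjusted p under 0.05. Without replicate 2 of 24 h there was 1, without replicate 1 of 72 h there was 1, which was FOS and none of the 7, and without replicate 2 of 72 h there were 3.

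**Figure D5:**
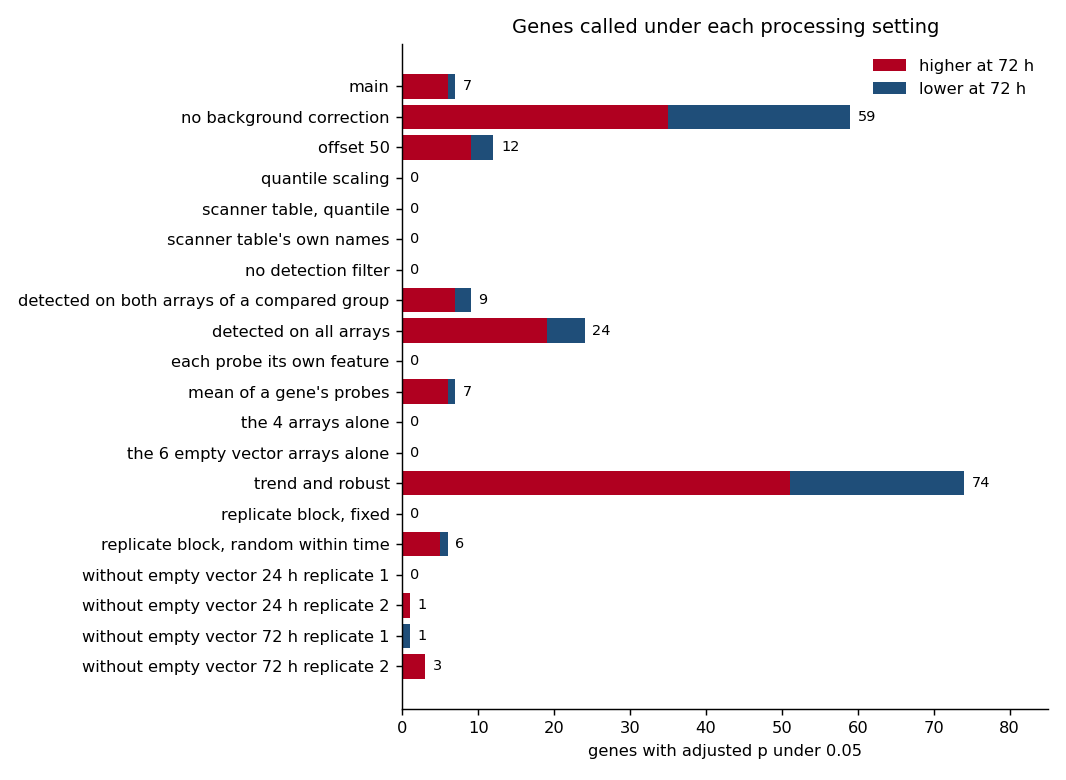
Number of genes with an adjusted p under 0.05 between 72 h and 24 h in empty vector cells under each processing setting, split by direction. The main setting gives 7, and the others run from 0 to 74.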

How the data were processed

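Gene expression was measured on 12 Illumina arrays, in 6 groups of 2 taken from the sample titles. The authors deposited a scanner table and a normalized table of linear intensity for 47323 probes, and the scanner table adds a detection p-value to each deposited intensity, per the file headers. The normalization they used is not stated in the labels or file headers. Array medians were 119.7 to 121.0 in the normalized table and 108.2 to 128.7 in the scanner table. Scanner columns were matched to normalized columns by rank correlation. On each array 3416 to 4076 probes with a detection p under 0.01 were dimmer than the background level (97.75 to 116.8, the median of probes with p above 0.9), so a probe counted as detected only if it was also brighter than that level. The 16501 probes with 1 gene that were detected on at least 2 arrays were kept, and the brightest stood for each of 12323 genes. By GEO's platform annotation 30113 probes had 1 gene, 8 had several and 17202 were unnamed. RefSeq held the gene of 30074 of them, and 0 symbols changed.

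Normalized intensities were background-corrected by normexp with an offset of 16 and taken to log2, with no further scaling; 1 missing value was set to the probe's median. A mean per group was fitted to all 12 arrays with limma 3.58.1 (R 4.3.3) and eBayes, which left 6 residual and 3.72 prior degrees of freedom, and p-values were adjusted over all genes by Benjamini-Hochberg. The steps were tested on simulated data with normal noise. Changes of 0.5 and -0.5 on the log2 scale were recovered for 24% and 12% of the changed genes, and changes of 1 and -1 for 90% and 92%. There were 5 false calls among 114. A missing call thus says little about differences near 0.5 or smaller. The number of arrays limits the precision. A gene below the detection limit on both arrays of a group was given a lower bound. Tables were handled with Python 3.11.15 and pandas 2.3.3. Promoters came from RefSeq (GRCh38.p14).

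The rule for named genes took the checks GRHL1, MYCN and HDAC3, up to 12 called genes in each direction, bounds for called genes below the limit, and, in each list, the members called or else the pair of lowest p. Further members of the cholesterol, NRF2, immediate early, G2/M, ATF4, IGF and matrix lists and the genes just outside the threshold were named after their values were seen. The members and lists were chosen with earlier results of these data known. In all 39 lists held 864 entries, with 811 on the array and 654 among the genes tested.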

Additional observations from a re-analysis of the deposited data

Results flagged for a closer look

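AIF1L was picked out because its change from 24 h to 72 h differed between the plasmids in a test of that difference. The change with the GRHL1 plasmid exceeded that with the empty vector by 1.78 on the log2 scale (limma adjusted p = 0.0132). With the empty vector the 24 h and 72 h arrays of AIF1L did not overlap but differed by only -0.09 (adjusted p = 0.833). With GRHL1 every 72 h array exceeded every 24 h array. Arrays were not tested as outliers, since each group held 2.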

How the results depend on the processing

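Genes called between 72 h and 24 h with the empty vector numbered 7 as reported. They numbered 59 without background correction, 12 with an offset of 50, 24 among genes detected on all arrays and 74 with trend and robust variance estimates. With quantile scaling, the scanner table under quantile scaling, the scanner table's own names, no detection filter, each probe as a feature, the 4 arrays alone and the 6 empty vector arrays alone, limma called 0, with 1088 to 1644 features at an unadjusted p under 0.05. Without 1 array the calls ran from 0 to 3. The share of calls that were lower was 14.3% as reported, 40.7% without background correction, 25% with an offset of 50, 31.1% with trend and robust, and 0% to 100% without 1 array. Deviations of arrays with the same replicate number correlated across genes at 0.009 to 0.115. Each value rests on 1 pair of groups, so it cannot decide whether replicate numbers pair the arrays. A fixed replicate block left 0 calls, with 1386 genes at an unadjusted p under 0.05, while a random replicate block left 6. Calls with the GRHL1 plasmid, 26 as reported, numbered 117 without background correction, 51 with an offset of 50, 0 under the scanner table's own names, 4 with no detection filter, 54 among genes detected on all arrays and 103 with trend and robust. Calls of a difference between plasmids, 1 as reported, numbered 5 without background correction, 2 with trend and robust, and 0 under the scanner table's own names, with no detection filter, with the mean of a gene's probes and without any 1 of the 4 arrays.

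None of the 7 called genes changed sign under the alternatives in which it was tested, which were 19 for 5 of them, fewer for HAMP, which the filter for detection on all arrays removed, and for CNKSR2, which that filter and the one for detection on both arrays of a compared group removed. Their highest adjusted p was 0.527. Other named genes changed sign, among them INHBE (-0.42 as reported), S100A11 (-0.34) and IFI6 (0.31). The scanner table's own names put the arrays that the normalized table names GRHL1 at 72 h in place of empty vector 72 h. Under them AIF1L gave 3.18, GRHL1 7.11, ARRDC4 -0.14, IFI6 -0.075, INHBE 0.28, KRT19 -0.066, PKLR 0.0022, S100A11 0.43, SLC11A2 -0.087 and SYVN1 0.027. Leaving out 1 array, the differences ran from -0.012 to 0.18 for AMOTL1, -0.015 to 0.27 for AMOTL2, -0.014 to 0.38 for ARRDC4, -0.24 to 0.13 for CD14, -0.10 to 0.25 for ERBB3, -0.58 to 0.34 for GRHL1 and -0.53 to 0.25 for PKLR. ERBB3 gave -0.029 with the mean of its probes. The medians of the cholesterol, NRF2, immediate early and G2/M lists kept their sign under every alternative: the cholesterol median reached -0.30 under the scanner table's own names, the NRF2 median was -0.06 without 24 h replicate 1, the immediate early median -0.07 without 72 h replicate 2, and the G2/M median 0.09 without 72 h replicate 1. The cause of these shifts was not tested. A slide block was not run, because the files used here give no slide. Genes near the detection limit, such as HAMP and CNKSR2, have only bounds.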

Other observations

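Among genes called with the GRHL1 plasmid but not with the empty vector, several had the same sign with both. NES, an intermediate filament of neural precursors, read 445 and 441 at 24 h, then 348 and 360.2 at 72 h with the empty vector. Its log2 difference was -0.38, against -0.66 with GRHL1. NAV2, a neuron navigator protein, read 158 and 176 and then 257 and 228 with the empty vector, a difference of 0.83 against 1.32 with GRHL1 by its brightest probe. With the empty vector, the other NAV2 probes gave 0.75 and 0.33, the latter with overlapping groups. DKK1, a secreted Wnt antagonist, read 1379.9 and 1838 at 24 h, then 1109 and 1113 at 72 h, a difference of -0.54 against -0.97 with GRHL1. MAP1A, a microtubule-associated protein of neurons, had -0.32 and -0.66. By the brightest probe, the groups did not overlap for any of these 4 genes with the empty vector, and the limma adjusted p there ran from 0.141 to 0.283. Of the 26 genes called with the GRHL1 plasmid, 22 had the same sign with the empty vector.

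ISLR2, KCNG1, TARM1 and AIF1L had opposite signs with the 2 plasmids, with empty vector differences between -0.09 and 0.01. CRH, corticotropin-releasing hormone, was called with GRHL1 (1.80), while its empty vector arrays read 194 and 215 at 24 h, then 287 and 212 at 72 h and overlapped.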
